A study of Homo sapiens with 6 samples.

Results

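The chains of collagens and laminins were followed in MDA-MB-231 cells, a triple-negative breast cancer line, by RNA sequencing of 3 control and 3 MLL3 knockout libraries. Chains were taken by symbol: every gene named COL, a number, A and a number, or LAM, a letter A, B or C and a number. This gave 37 of the 15706 genes in the deposited table, of which 27 encode collagen chains and 10 encode laminin chains. Control libraries are labelled sgNT and carry the genotype written "Wilde type". Knockout libraries are labelled sgMLL3, where MLL3 is another name of KMT2C, a histone H3 lysine methyltransferase that acts at enhancers. All 6 cultures grew in DMEM with serum and were untreated. The labels number the sgNT and sgMLL3 samples #1 to #3 as biological replicates, and do not say whether a number is a guide, a clone or a pool. The p-values below therefore measure only the spread between these samples.

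Collagens are secreted or membrane proteins in which alpha chains wind into a helix, and laminins are cross-shaped trimers of an alpha, a beta and a gamma chain. Fibrillar collagens form the load-bearing fibrils of stroma. Type IV collagen and laminins form the sheet-like basement membrane under epithelia, type VI collagen forms beaded filaments around cells, FACIT collagens sit on the surface of fibrils, and transmembrane collagens are held in the cell membrane. Carcinoma cells both make such chains and bind them through integrins and other receptors.

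The deposited values are normalized read counts, that is, reads per gene divided by a size factor for the library. Recovered read totals ran from 41240265 to 49514464 per library. KMT2C itself, the targeted gene, had normalized counts of 1367, 1379 and 1255 in control replicates 1 to 3 and 1519, 1659.9 and 1339 in knockout replicates 1 to 3. Its log2 fold change was 0.17 (SE 0.10, limma adjusted p = 0.205), so its transcript level gave no check of the genotype, and "knockout" below means the library labelled sgMLL3. The line's markers VIM, CD44, KRT8, KRT18, AXL and MSN were all present, with a summed normalized count of 201503 to 215448 in control and 180698 to 193643 in knockout libraries. Of the receptors listed as lacking in the line, ESR1 and PGR had no row among the genes used here. ERBB2 had normalized counts of 5612 to 6016 in control and 4581 to 5282 in knockout libraries. Among genes of other cells, 2 of 10 fibroblast markers had a value: PDGFRB and FBLN1 summed to 954 to 1047 in control and 709 to 779 in knockout libraries, and DCN, LUM and PDGFRA had no row among the genes used here. For endothelial markers, 3 of 7 had a value and summed to 222 to 292 in control and 166 to 207 in knockout libraries. For leukocyte markers, 6 of 8 had a value and summed to 589 to 911 in control and 462 to 538 in knockout libraries. The part of these markers in the chain results was not tested.

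The laminin beta chains LAMB3 and LAMB2 had the highest levels of the family. Mean normalized counts of the 37 chains ran from 16.7 for LAMA1 to 19969 for LAMB3. Per kb of merged exons, the scale on which levels of different genes are compared here, LAMB3 stood first at 4260.0, followed by LAMB2 at 2307, COL13A1 at 1987 and LAMC1 at 1384. COL6A1 (1082) and LAMA5 (1079) came next, then COL18A1 (917) and LAMB1 (907). The fibrillar chain with the highest level per kb was COL5A1, at 389.5, in 12th place of the family. The classical stromal chains lay far lower, with COL1A2 at 43.8, COL1A1 at 30.9 and COL3A1 at 8.21 per kb. By mean normalized count, 20 chains reached 500, 6 lay between 100 and 500, and 11 lay under 100. Another 19 known collagen and laminin symbols, COL2A1, COL11A1, COL5A3 and COL4A6 among them, had no row among the genes used here.

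**Figure D1:**
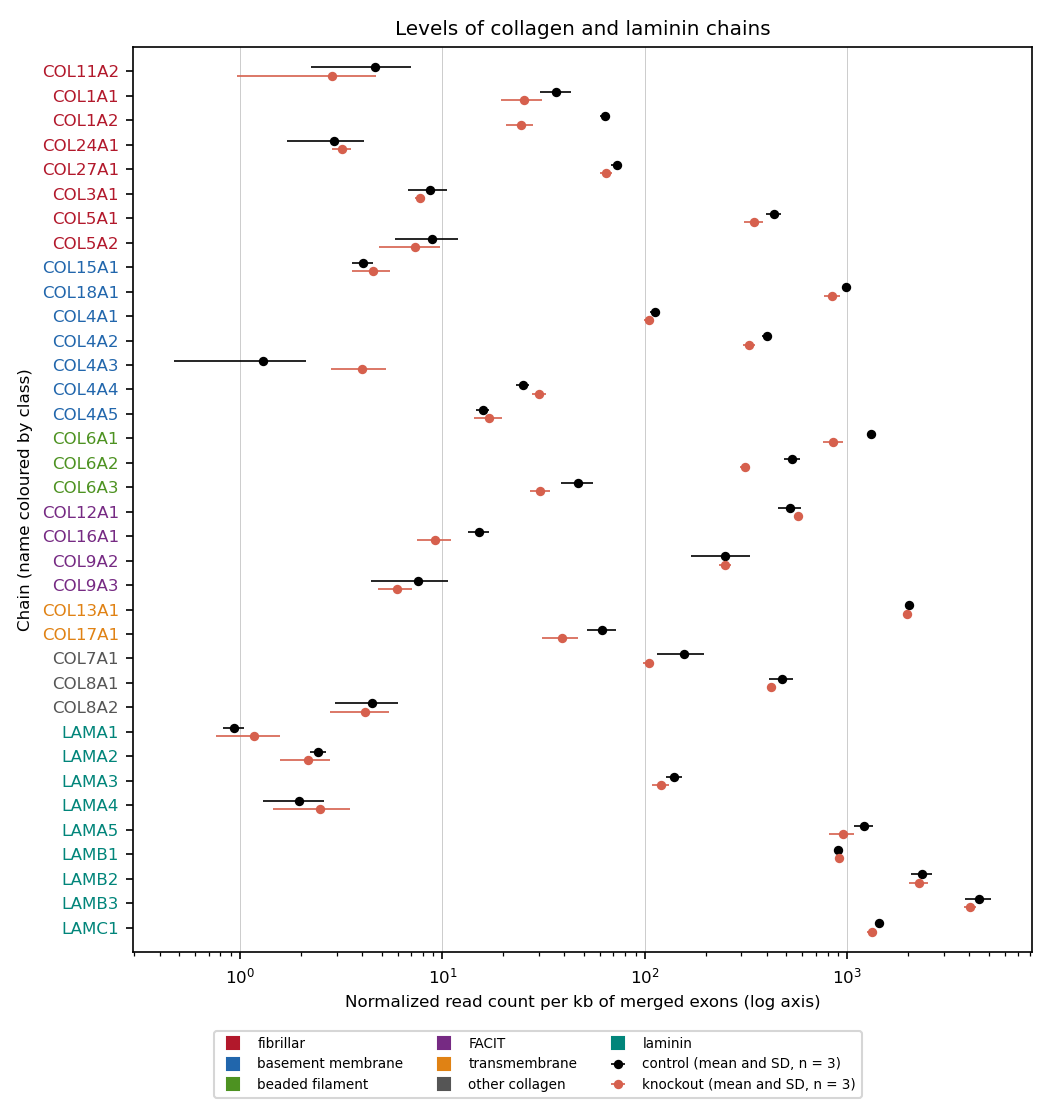
Mean normalized read count per kb of merged exons (log axis) of 36 of the 37 chains in control and knockout libraries, with SD over 3 libraries per group; names are coloured by class. LAMB3, LAMB2 and COL13A1 lie at the right, and COL1A2 and the COL6 chains show knockout means left of the control means.

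Each gene was compared between knockout and control with limma on log2(normalized count + 1), with Benjamini-Hochberg adjustment over 14618 genes whose mean was at least 10. All 37 chains passed that filter. At an adjusted p under 0.05, 13 chains were lower and 1 was higher in the knockout libraries, and 23 did not pass the threshold. Across all genes tested, 14.4% were lower and 18.9% were higher. In these bulk libraries, fewer cells with a transcript and less of it per cell cannot be told apart. The median log2 fold change of the chains was -0.17, against -0.017 for all genes. In 12 chains every knockout library was below every control library, and in 2 every knockout library was above, while such separation held for 22.4% of all genes downward and 23.9% upward. The authors' deposited table gave the same 13 chains as lower and none as higher, with 4 chains without an adjusted p. COL4A3, the 1 chain called higher here, was among those 4.

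Fold changes in this comparison followed GC content across the transcriptome, and the chains are rich in G and C. The chains' GC content ran from 41.7% to 67.4% with a median of 55.4%, against 48.5% for all genes. Spearman's correlation of log2 fold change with GC content was -0.67 across 14598 genes and -0.42 across the 37 chains, as a description over genes that share the same 6 libraries. Each chain was therefore also tested after a smooth trend with GC content and transcript length had been removed within each library. After removal 6 chains were lower and none was higher, against 5.93% and 4.07% of all genes, and the median of the chains was -0.0497 against -0.018. COL1A2, COL6A1, COL6A2, COL6A3 and LAMA5 were among them. Whether the trend is technical was not tested.

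**Figure D2:**
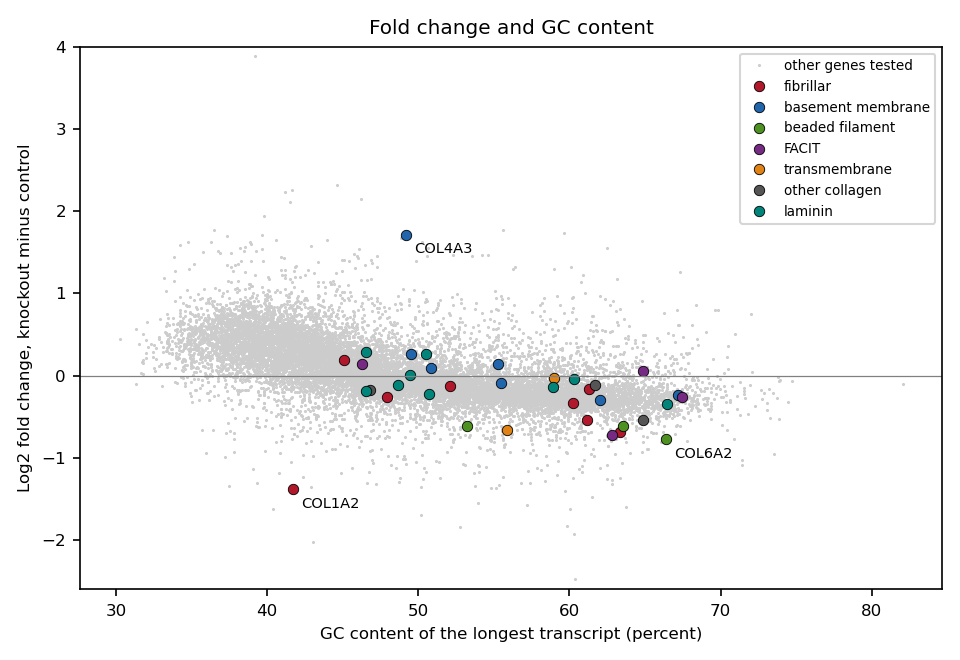
Log2 fold change (knockout minus control) against GC content of the longest transcript, in percent, for 14597 genes, in grey, and 36 of the 37 chains coloured by class. The cloud slopes down with rising GC content, and COL1A2, which has the lowest GC content of the chains at 41.7%, lies below nearly all other genes of similar GC content.

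Among the 8 fibrillar chains, 3 were lower and none was higher, with a median log2 fold change of -0.30. COL1A2, the alpha-2 chain of type I collagen, the main fibril former of skin, bone and tumour stroma, had the largest fall of all 37 chains. Its normalized counts were 675, 695 and 745 in control replicates 1 to 3 and 256, 241 and 319 in knockout replicates 1 to 3. All 3 knockout libraries were under the lowest control library. The mean fell from 705 ± 35.7 to 272 ± 41.6 (SD, n = 3 each), a 2.59-fold lower level, which is -1.38 on the log2 scale (SE 0.13, adjusted p = 1.4e-05 by limma). With the trend removed the log2 fold change was -1.70 (adjusted p = 0.00045) and so further from 0. COL1A2 lies on chromosome 7, 94394561 to 94431232, plus strand (GRCh38, GENCODE 29, as for all gene positions here).

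COL1A1, the partner alpha-1 chain, moved less and its groups overlapped. It had normalized counts of 400, 287 and 390.2 in control and 184, 295 and 263 in knockout libraries. Knockout replicate 2 was above control replicate 2. The log2 fold change was -0.55 (SE 0.18, limma adjusted p = 0.027), and it lost significance without knockout replicate 1 (-0.35, adjusted p = 0.18), without control replicate 3 (-0.48, adjusted p = 0.077) and with the trend removed (-0.36, adjusted p = 0.21). COL5A1, a chain of type V collagen that takes part in starting fibrils and setting their width, had normalized counts of 5326, 4619 and 4619 in control and 3405, 4211 and 3970.2 in knockout libraries. The groups did not overlap. The fold change was -0.33 on the log2 scale (SE 0.09, adjusted p = 0.013) and missed the threshold after trend removal (-0.16, adjusted p = 0.26) and without knockout replicate 1 (-0.24, adjusted p = 0.095).

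The other 5 fibrillar chains did not pass. COL27A1, a fibrillar chain of cartilage, had normalized counts of 1012, 1075 and 957 in control and 863, 868 and 978 in knockout libraries, and the groups overlapped (log2 fold change -0.17, 95% interval -0.39 to 0.0498). COL5A2, the usual partner of COL5A1, had 91.6, 58.0 and 48.3 in control and 47.5, 40.8 and 75.2 in knockout libraries. At this level its log2 fold change of -0.27 came with an interval from -0.90 to 0.37, so a fall as large as that of COL5A1 was not detectable. COL3A1, COL11A2 and COL24A1 had means of 25.2 to 55.9 normalized counts, log2 fold changes of -0.69 to 0.19 and overlapping groups.

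The 3 COL6 chains fell together. They are COL6A1, COL6A2 and COL6A3, which combine into type VI collagen, the beaded filament that anchors cells to the surrounding matrix. All 3 of 3 were lower both in the values as deposited and with the trend removed, and in none did the groups overlap. COL6A1 had normalized counts of 7075, 6856 and 7056 in control and 4015, 4667 and 5026 in knockout libraries. Its mean fell by 34.7% (log2 fold change -0.62, SE 0.09, limma adjusted p = 0.0001), and by 0.40 on the log2 scale with the trend removed (adjusted p = 0.0023).

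COL6A2 had 2642, 2824 and 3175 in control and 1626, 1619 and 1788 in knockout libraries, with the highest knockout library well under the lowest control library. It fell by 41.8% (log2 fold change -0.78, SE 0.09, adjusted p = 4.5e-05; trend removed -0.55, adjusted p = 0.0011). COL6A3, the long chain with many globular domains, had 1107, 842 and 814 in control and 518, 636 and 642 in knockout libraries. Control replicate 1 stood above the other controls, and knockout replicate 1 was the lowest library. Its mean fell by 35.0% (log2 fold change -0.61, SE 0.13, adjusted p = 0.0023; trend removed -0.55, adjusted p = 0.019). With the trend removed, it missed the threshold without any 1 of knockout replicates 1, 2 and 3 (adjusted p = 0.12, 0.078 and 0.063). Ratios of the 3 chains within a library overlapped between groups. The log2 ratio of COL6A2 to COL6A1 was -1.28 ± 0.13 in control and -1.44 ± 0.12 in knockout libraries (SD, n = 3 each), and that of COL6A3 to COL6A1 was -2.94 ± 0.23 and -2.93 ± 0.05. The 3 chains summed to 0.0238% ± 0.0005 of all normalized counts in control and 0.0156% ± 0.0014 in knockout libraries.

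COL6A1 (45981737 to 46005050) and COL6A2 (46098097 to 46132849) are neighbours on the plus strand of chromosome 21, 93.0 kb apart, while COL6A3 lies on the minus strand of chromosome 2 (237324003 to 237414375). The 250 bases upstream of the RefSeq start of COL6A2 and of COL6A3 (GRCh38.p14) are shown because these chains fell together from different chromosomes. Capitals mark the GC box GGGCGG and the TATA box, spelled TATAAA, on either strand.
COL6A2 (chr21:46097862-46098111, plus strand): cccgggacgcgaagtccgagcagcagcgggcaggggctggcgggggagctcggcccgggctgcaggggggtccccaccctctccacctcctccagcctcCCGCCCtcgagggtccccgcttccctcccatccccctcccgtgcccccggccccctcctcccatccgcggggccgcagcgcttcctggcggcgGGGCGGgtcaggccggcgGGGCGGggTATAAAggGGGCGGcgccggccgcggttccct
COL6A3 (chr2:237414165-237414414, minus strand): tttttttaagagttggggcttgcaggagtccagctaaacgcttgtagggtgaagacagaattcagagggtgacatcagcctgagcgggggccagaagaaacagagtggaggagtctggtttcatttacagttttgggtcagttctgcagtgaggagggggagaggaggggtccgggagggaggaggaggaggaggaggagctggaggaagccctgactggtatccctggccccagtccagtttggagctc
The COL6A2 window holds 4 GC boxes and 1 TATA box. In the COL6A3 window no motif of those searched was found. By the GENCODE positions COL6A3 starts at 237414375 on the minus strand, so most of its window lies inside the gene. The result for this window therefore says little about the bases upstream of the GENCODE start. Only the right end of the COL6A2 window lies inside COL6A2, which starts at 46098097. The search covered both strands and allowed overlapping matches. Besides these motifs it took in the CCAAT box. It also took in the AP-1 element, spelled TGANTCA. Over 35116 RefSeq windows of the same length, 42.6% held a GC box, 32.0% a CCAAT box, 10.7% a TATA box and 6.57% an AP-1 element. Of the 28 chains with a window, 21 held a GC box, 6 a CCAAT box, 5 a TATA box and 2 an AP-1 element. Of the 9 lower chains with a window, the numbers were 7, 2, 4 and 0. COL1A2, COL1A1 and COL6A1 were among the lower chains without a window, so these counts leave them out. A chain with more than 1 window was counted when any of its windows held the motif, whereas the percentages are per window. The chain counts and the percentages are therefore not on the same scale. COL11A2 had 4 windows, LAMB3 had 3, and COL18A1, COL5A1 and COL24A1 had 2 each. These counts describe letters and carry no test.

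**Figure D3:**
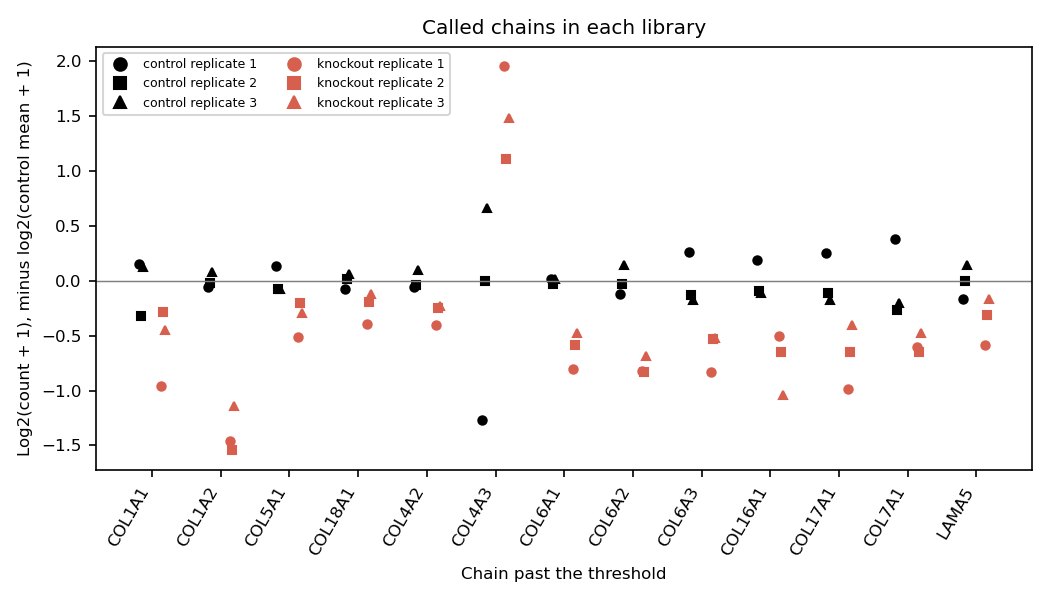
Log2(normalized count + 1) of 13 of the 14 called chains in each of the 6 libraries, as the difference from the log2 of the control mean + 1; black marks are control and red marks knockout libraries, with a mark shape per replicate number. The red marks lie below the black ones for 11 chains, overlap them for COL1A1 and lie above them for COL4A3.

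Of the 7 basement membrane collagen chains, 2 were lower and 1 was higher, with a median log2 fold change of 0.087. After trend removal none of the 7 passed in either direction. COL4A2, which with COL4A1 forms the common type IV trimer of most basement membranes, had normalized counts of 7479, 7536 and 8288 in control and 5861, 6538 and 6612 in knockout libraries, and the groups did not overlap. Its log2 fold change was -0.29 (SE 0.08, limma adjusted p = 0.012; trend removed -0.10, adjusted p = 0.25; without knockout replicate 1 -0.24, adjusted p = 0.079). COL18A1, the chain from which endostatin is cut, had 8007, 8514 and 8827 in control and 6442, 7364 and 7764 in knockout libraries. These groups did not overlap either, yet the log2 fold change, -0.24 (SE 0.09, adjusted p = 0.041), was near the threshold, and removal of the trend brought it to -0.0495 (adjusted p = 0.58). It also lost significance without any 1 of control replicates 2 and 3 and knockout replicates 1 and 2 (adjusted p = 0.11, 0.11, 0.22 and 0.10 in that order). COL18A1 shares 1401 exon bases, 16.4% of its merged exons, with SLC19A1 on the other strand, and reads there cannot be assigned where the counting ignored strand.

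COL4A1 had 1557, 1716 and 1665 in control and 1478, 1648 and 1526 in knockout libraries. The groups overlapped and the difference did not pass (log2 fold change -0.086, 95% interval -0.28 to 0.11). The ratio of COL4A2 to COL4A1 per kb was 3.67, 3.35 and 3.80 in control and 3.03, 3.03 and 3.31 in knockout libraries. Every knockout ratio was below every control ratio. The difference was -0.21 on the log2 scale (exact two-sided permutation p = 0.1, the smallest that 3 against 3 libraries allow). It was -0.15 with the trend removed (exact permutation p = 0.1).

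COL4A3 (chromosome 2, 227164565 to 227314792, plus strand), a chain of the type IV trimer of kidney, lung and inner ear, was the 1 chain called higher, at a very low level. Its normalized counts were 4.31, 11.8 and 19.3 in control and 48.6, 26.6 and 34.9 in knockout libraries. The groups did not overlap, but the control libraries spread over several-fold. The mean was 3.10-fold higher (log2 fold change 1.72, SE 0.49, limma adjusted p = 0.013), and with the trend removed the value was 1.71 (adjusted p = 0.054). The call was also lost without knockout replicate 1 (adjusted p = 0.092). COL4A4, which pairs with COL4A3, had 236, 247 and 271 in control and 321, 312 and 276 in knockout libraries, with all knockout libraries above the highest control library. The log2 fold change of 0.27 (95% interval -0.03 to 0.57, adjusted p = 0.16) did not pass. COL4A5 and COL15A1 had means of 195 and 28.6 normalized counts, overlapping groups and log2 fold changes of 0.087 and 0.14.

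The type IV genes lie head to head in pairs, COL4A1 with COL4A2 on chromosome 13 and COL4A4 with COL4A3 on chromosome 2. RefSeq places the starts 126 bases apart in the first pair and 418 bases apart in the second. The GENCODE gene positions differ from this. There the first pair overlaps, with a gap of -1422 bases, and the second pair has a gap of 111 bases. The RefSeq gap between COL4A1 and COL4A2 has 80.2% GC. It is shown because both genes start from it in RefSeq, and only COL4A2 passed the test. COL4A1 runs to the left and COL4A2 to the right. By the GENCODE positions this stretch lies inside COL4A2 and partly inside COL4A1. The window upstream of the RefSeq start of COL4A3 is shown because COL4A3 is the 1 chain called higher. Capitals mark the CCAAT box in the first sequence and the GC box on either strand in both.
COL4A1 and COL4A2 gap (chr13:110307158-110307283, plus strand): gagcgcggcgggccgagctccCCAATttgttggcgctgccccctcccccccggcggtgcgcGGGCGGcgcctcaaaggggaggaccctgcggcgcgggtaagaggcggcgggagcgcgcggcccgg
COL4A3 (chr2:227164374-227164623, plus strand): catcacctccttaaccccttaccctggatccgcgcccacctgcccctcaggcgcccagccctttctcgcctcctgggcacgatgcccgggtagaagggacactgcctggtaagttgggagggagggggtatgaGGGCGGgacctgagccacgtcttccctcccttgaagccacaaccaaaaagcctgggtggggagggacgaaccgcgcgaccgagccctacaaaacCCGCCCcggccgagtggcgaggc
The gap holds 1 CCAAT box and 1 GC box, and the COL4A3 window holds 2 GC boxes. By the GENCODE positions COL4A3 starts at 227164565, so the right end of its window lies inside the gene.

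Of the 4 FACIT chains, 1 was lower. COL16A1, which links fibrils to other matrix parts, had normalized counts of 161, 132 and 130.4 in control and 99.3, 89.5 and 67.9 in knockout libraries. The groups did not overlap, and the log2 fold change was -0.73 (SE 0.21, limma adjusted p = 0.015). It missed the threshold after trend removal (-0.52, adjusted p = 0.18) and without knockout replicate 3 (-0.57, adjusted p = 0.056). COL12A1, the most abundant FACIT chain, had 5539, 6924 and 7109 in control and 7130.3, 7326 and 7004 in knockout libraries. Control replicate 1 was the lowest of the 6, and the groups overlapped (log2 fold change 0.14, 95% interval -0.05 to 0.33).

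COL9A2, a type IX chain best known from cartilage, showed the same library standing apart, with 661, 1255 and 1245 in control and 1019, 997 and 1128 in knockout libraries. The log2 fold change was 0.049 (adjusted p = 0.85) with all libraries and -0.26 (adjusted p = 0.047) without control replicate 1. With the trend removed as well, it was 0.011 (adjusted p = 0.94) without that library. COL9A3 had a mean of 32.6 normalized counts and a log2 fold change of -0.26 (95% interval -1.04 to 0.52).

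Of the 2 transmembrane chains, 1 was lower. COL17A1, a component of hemidesmosomes, which fix epithelial cells to the basement membrane, had normalized counts of 517, 403 and 386 in control and 219.7, 276 and 329 in knockout libraries. The groups did not overlap, and the log2 fold change was -0.67 (SE 0.16, limma adjusted p = 0.0055; trend removed -0.52, adjusted p = 0.06). COL13A1, found at cell adhesion sites and the neuromuscular junction, had 12171, 11716 and 11592 in control and 11239.5, 11855 and 11636 in knockout libraries, and the groups overlapped. Its log2 fold change was -0.031 (95% interval -0.19 to 0.12), which excludes a change of the size seen for COL17A1, whose own interval was -1.01 to -0.33. With the trend removed COL13A1 had the opposite sign (0.18, adjusted p = 0.098). With the trend removed and control replicate 1 left out, it was called higher (0.23, limma adjusted p = 0.00088).

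Of the 3 remaining collagens, 1 was lower. COL7A1, the chain of the anchoring fibrils below epithelial basement membranes, had normalized counts of 2239, 1427 and 1491 in control and 1129, 1096 and 1238 in knockout libraries. Control replicate 1 was far above the other controls, but the groups did not overlap without it either. The log2 fold change was -0.55 (SE 0.13, limma adjusted p = 0.006), -0.34 (adjusted p = 0.0079) without control replicate 1 and -0.37 (adjusted p = 0.17) with the trend removed. COL8A1, a short network-forming chain of vessel walls and the cornea, had 3774, 4966 and 4652 in control and 4017, 4015 and 3777 in knockout libraries. The groups overlapped through control replicate 1 alone, and the log2 fold change of -0.17 (adjusted p = 0.18) passed only without that library (adjusted p = 0.0061). COL8A2, its partner, had a mean of 20.1 and a log2 fold change of -0.11 (95% interval -1.02 to 0.80).

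**Figure D4:**
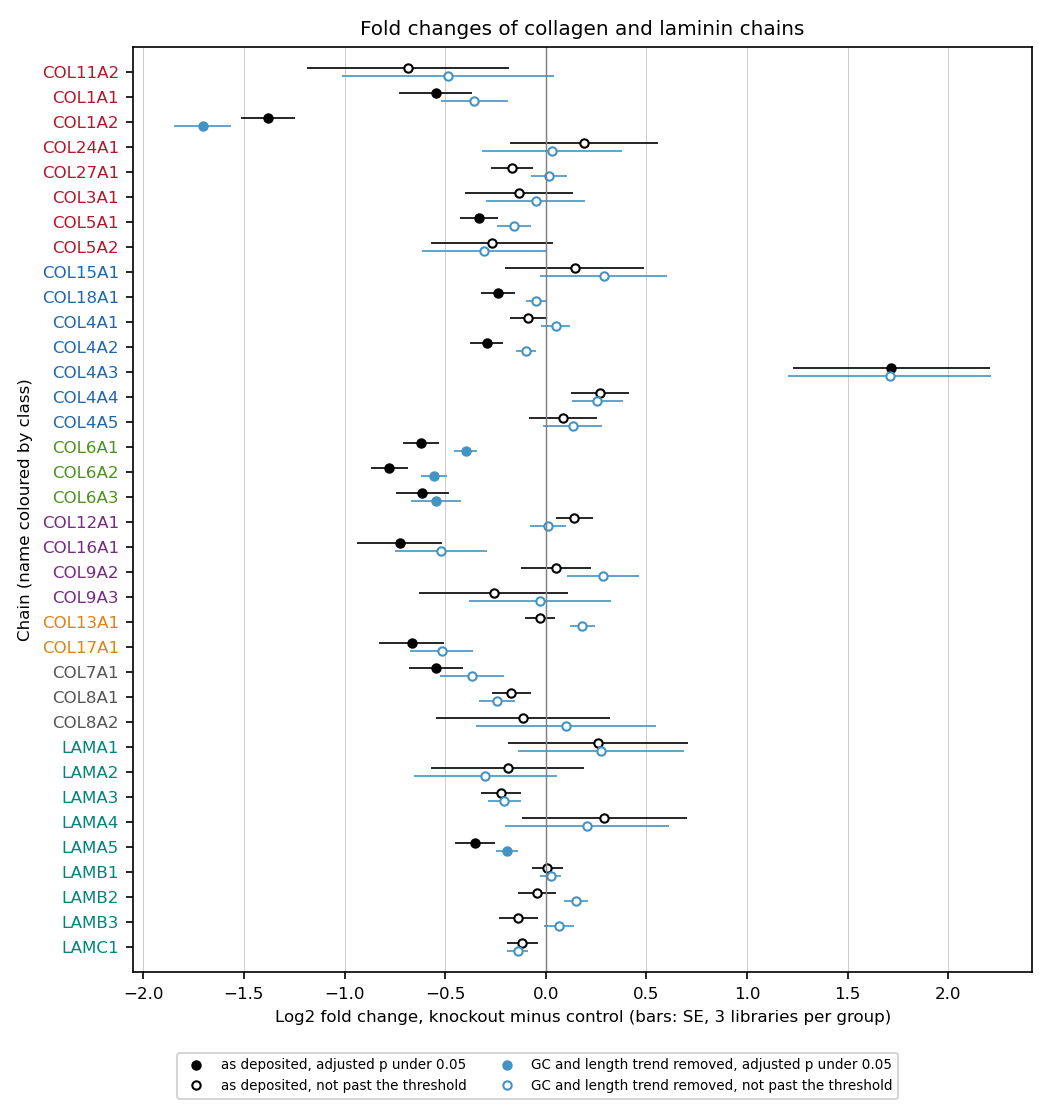
Log2 fold change (knockout minus control) with SE for 36 of the 37 chains, as deposited in black and with the GC and length trend removed in blue; filled points have an adjusted p under 0.05. COL1A2, COL6A1, COL6A2, COL6A3 and LAMA5 are filled in both colours, and most other blue points lie closer to 0 than the black ones or to the right of them.

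The median log2 fold change of the 10 laminin chains was -0.13, and none of them was higher. LAMA5, the alpha chain of the widespread adult basement membrane laminins (chromosome 20, 62307955 to 62367312, minus strand), had 15426, 17250.4 and 19116 in control and 11473, 13885 and 15349 in knockout libraries. The groups were close, with the highest knockout library just under the lowest control library. Its log2 fold change was -0.35 (SE 0.10, limma adjusted p = 0.014; trend removed -0.19, adjusted p = 0.049), and the call was lost without control replicate 3 (-0.28, adjusted p = 0.05046) or knockout replicate 1 (-0.24, adjusted p = 0.11). With the trend removed, LAMA5 passed without control replicate 1 and missed the threshold without any 1 of the other 5 libraries (adjusted p = 0.11 to 0.22).

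LAMA3 and LAMB3, an alpha and a beta chain of the laminin that anchors epithelia through hemidesmosomes, did not pass. LAMA3 had 2276, 1969 and 1919 in control and 1586, 1923 and 1780.0 in knockout libraries, and the groups overlapped by a few counts (log2 fold change -0.22, adjusted p = 0.097). LAMB3, the most abundant chain of the family, had 17471, 21916 and 23539 in control and 17631, 19031 and 20225 in knockout libraries. Control replicate 1 was the lowest of the 6, and the log2 fold change of -0.14 (95% interval -0.34 to 0.069) passed only without it (adjusted p = 0.0068). With the trend removed LAMB3 had 0.066 with all libraries and -0.029 (adjusted p = 0.66) without control replicate 1. The ratio of LAMB3 to LAMA3 overlapped between groups (0.085, exact permutation p = 0.9).

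LAMB1, LAMC1 and LAMB2, beta and gamma chains of laminins found in many basement membranes, did not pass either. LAMB1 had 7498, 7506 and 7086 in control and 7482, 7571 and 7141 in knockout libraries, a log2 fold change of 0.0069 with a 95% interval of -0.15 to 0.17. LAMC1, the gamma chain of most laminins, had 11699, 12743 and 11853 in control and 10521, 11781 and 11201 in knockout libraries (log2 fold change -0.12, interval -0.28 to 0.048). LAMB2 had 14176, 16160.3 and 17939 in control and 14223, 15091 and 17419 in knockout libraries (-0.046, interval -0.24 to 0.15). In all 3 the groups overlapped, and the intervals exclude the LAMA5 estimate of -0.35. The LAMA5 interval itself, -0.56 to -0.14, overlapped all 3 intervals, and the difference between chains was not tested. With the trend removed the log2 fold change was 0.025 for LAMB1, -0.14 for LAMC1 and 0.15 for LAMB2, beside -0.19 for LAMA5. LAMC1 was called lower only with the trend removed and control replicate 1 left out. LAMA1, LAMA2 and LAMA4 had means of 16.7 to 25.6 normalized counts, log2 fold changes of -0.19 to 0.29 and overlapping groups.

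Ratios of chains that share a trimer, or a gene pair, were compared within libraries for 9 pairs. For COL1A2 to COL1A1, COL4A2 to COL4A1 and COL4A4 to COL4A3 the groups did not overlap, each with an exact permutation p = 0.1, which is 0.225 after adjustment over the 9 pairs. With the trend removed their log2 differences were -1.35, -0.15 and -1.45 in that order, each with an exact permutation p = 0.1. COL1A2 to COL1A1 had the largest difference after the sparse COL4A4 to COL4A3 pair: per kb the ratio was 1.49, 2.13 and 1.68 in control and 1.22, 0.719 and 1.07 in knockout libraries. The mean went from 1.77 ± 0.33 to 1.00 ± 0.26 (SD, n = 3 each), a difference of -0.83 on the log2 scale of the counts. COL4A4 to COL4A3 went from 27.1 ± 19.7 to 7.93 ± 2.41 per kb. Exact permutation p was 0.2 for LAMC1 to LAMB1 (-0.12) and 0.8 for COL5A2 to COL5A1 (0.066), which overlapped between groups, as did both COL6 ratios. With the trend removed LAMC1 to LAMB1 had -0.16 (exact permutation p = 0.1).

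**Figure D5:**
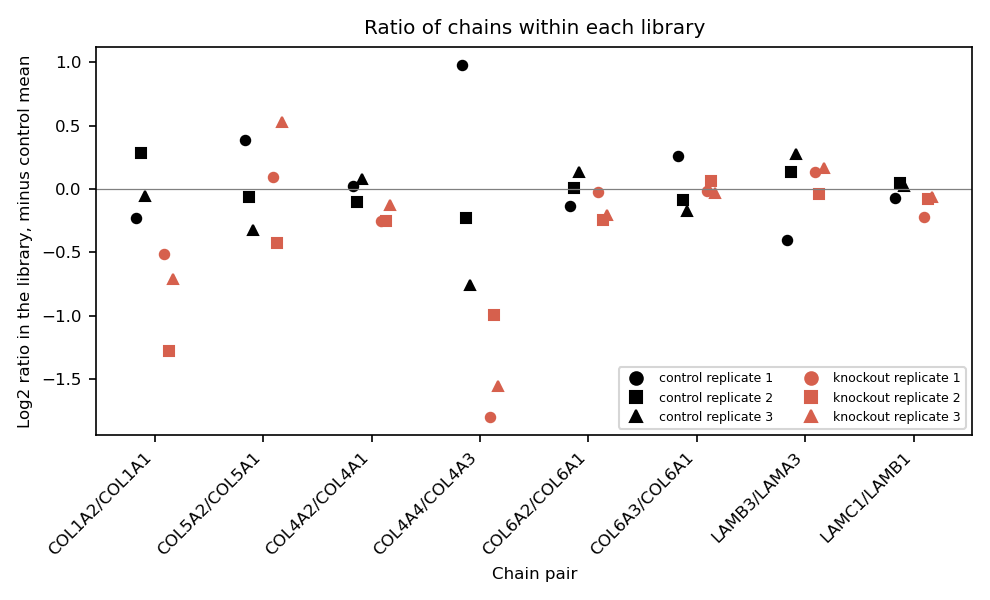
Log2 ratio of the normalized counts of chain pairs in each library, minus the control mean of that pair; black marks are control and red marks knockout libraries. Red lies wholly below black for COL1A2/COL1A1, COL4A2/COL4A1 and COL4A4/COL4A3, and the colours overlap for the other 5 pairs.

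As a share of all normalized counts, the 37 chains together took 0.295%, 0.313% and 0.315% in control and 0.261%, 0.284% and 0.292% in knockout libraries. The groups did not overlap, and the means were 0.308% ± 0.011 and 0.279% ± 0.016 (SD, n = 3 each). Laminins took the larger part, at 0.170% ± 0.011 and 0.158% ± 0.011. Collagens took 0.138% ± 0.001 and 0.121% ± 0.005.

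Knockout replicate 1 had the lowest normalized count of the 6 libraries in 8 of the 13 lower chains. Without it 8 chains were lower and none was higher, against 3.83% and 10.9% of all genes, and COL1A2, COL6A1, COL6A2, COL6A3, COL7A1, COL16A1 and COL17A1 were among those that remained. Control replicate 1 stood apart from the other 5 libraries on the second principal component of all genes (34.9, against -15.1 to -2.03). Without it 17 chains were lower, with COL11A2, COL8A1, COL9A2 and LAMB3 added, against 19.6% of all genes.

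Genes that bind, fold, process or cleave these chains gave mixed counts. The counts below stand beside 18.9% of all genes tested higher and 14.4% lower, or 4.07% and 5.93% with the trend removed. Collagen receptors and metalloproteases, the lists with only higher calls, had a median GC content of 40.9% and 43.35%, against 48.5% for all genes. Of 6 collagen receptors tested, 3 were higher and none was lower. ITGA2, the alpha-2 integrin that binds fibrillar collagen, had normalized counts of 2318, 2387 and 2036 in control and 4041, 3957 and 3332 in knockout libraries, a log2 fold change of 0.75 (limma adjusted p = 5.5e-05; trend removed 0.35, adjusted p = 0.0053). ITGA1, the alpha-1 integrin with a preference for type IV collagen, had a log2 fold change of 0.91 (adjusted p = 0.00022; trend removed 0.46, adjusted p = 0.055). After trend removal 1 of the 6 was higher.

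Of 8 laminin receptors, 1 was higher and 3 were lower. ITGB4, the beta-4 integrin of hemidesmosomes, had 10373, 10797 and 11887 in control and 6769, 7964 and 8297 in knockout libraries, a log2 fold change of -0.52 (limma adjusted p = 0.0004; trend removed -0.32, adjusted p = 0.0029). ITGA3 was lower by a log2 fold change of -0.36 (adjusted p = 0.0095; trend removed -0.16, adjusted p = 0.16), and ITGA6, the alpha-6 partner of ITGB4, was higher by 0.31 (adjusted p = 0.014; trend removed 0.046, adjusted p = 0.67). Only ITGB4 passed after trend removal. Of 6 other basement membrane components tested, FRAS1 was higher (0.52, adjusted p = 0.0018), and AGRN (-0.27, adjusted p = 0.037) and NTN4 (-0.47, adjusted p = 0.047) were lower. Only FRAS1 passed after trend removal.

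Among 21 genes for folding, modification and secretion of collagen chains, 6 were higher and 4 were lower. These are 28.6% and 19.0%, against 18.9% and 14.4% of all genes. PLOD2, a lysyl hydroxylase that sets the crosslinks of fibrillar collagen, had 2590, 3058 and 2946 in control and 5122, 4495 and 4331 in knockout libraries, a log2 fold change of 0.70 (limma adjusted p = 6.2e-05; trend removed 0.28, adjusted p = 0.034). P4HA1, a prolyl 4-hydroxylase subunit needed for a stable collagen helix, was higher by 0.67 (adjusted p = 7.6e-05; trend removed 0.34, adjusted p = 0.0038). P3H2, a prolyl 3-hydroxylase that acts on type IV collagen, was lower by a log2 fold change of -0.57 (adjusted p = 0.00066; trend removed -0.49, adjusted p = 0.0061), and PLOD3 by -0.29 (adjusted p = 0.017; trend removed -0.062). SERPINH1, the collagen chaperone HSP47, did not pass (-0.18, adjusted p = 0.095). After trend removal 3 of the 21 were higher and 1 was lower.

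Of 10 genes for propeptide cleavage and crosslinking, 3 were higher and 3 were lower. ADAMTS3, a procollagen N-proteinase, had a mean of 7.67 normalized counts in control and 26.5 in knockout libraries, so it passed the filter on low values only through the knockout group. Its log2 fold change of 1.57 (limma adjusted p = 0.026) is among the 3 higher calls and missed the threshold after trend removal (1.305, adjusted p = 0.12). ADAMTS14 was higher by 0.54 (adjusted p = 0.037; trend removed 0.75, adjusted p = 0.016). LOXL4 (-0.49, adjusted p = 0.0026; trend removed -0.30, adjusted p = 0.046) and LOXL1 (-0.51, adjusted p = 0.0083; trend removed -0.29, adjusted p = 0.19), both of the lysyl oxidase family that crosslinks collagen, were lower. After trend removal 1 of the 10, ADAMTS14, was higher and 1, LOXL4, was lower. Of 5 collagen-degrading metalloproteases tested, 3 were higher and none was lower. MMP8, a collagenase first known from neutrophils, went from a mean of 36.7 ± 12.3 to 97.4 ± 9.98 normalized counts (SD, n = 3 each; log2 fold change 1.43, adjusted p = 0.0012; trend removed 1.11, adjusted p = 0.022). MMP1, the interstitial collagenase, was higher by 0.60 (adjusted p = 0.0051; trend removed 0.41, adjusted p = 0.049). MMP14, the most abundant of them, did not pass (-0.14, adjusted p = 0.30).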

How the data were processed

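RNA sequencing of 3 control and 3 knockout cultures was analysed from 1 deposited table. Per the submitters' processing notes the genome build was GRCh38.p13, and the authors' tools were DESeq2 1.30.1, featureCounts 1.5.0, STAR 2.4.0 and FastQC. Not given in the sources used here are the annotation release, filters and the strand setting. Per the file headers, the authors deposited a normalized count signal per library (reads divided by a size factor), a log2 fold change, a Wald statistic, which is a score, and p-values. Whole reads were recovered for 100% of values within 0.01.

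Computed here: limma 3.58.1 with a mean-variance trend (R 4.3.3) on log2(normalized count + 1), two-sided, without covariates, on genes with a mean of at least 10. The trend removal fitted natural splines of 5 terms each of GC content and log2 longest transcript length in each library. GENCODE 29 matched 15681 of 15706 gene IDs. A mean fold is on the count scale. A log2 fold change is a difference of mean log2(count + 1), and the added 1 shrinks it in low genes. These measures can also differ in either direction where the libraries of a group spread widely. On data simulated for 14618 genes, the test recovered 55.7% of 106 genes changed by 0.5 and 88.3% of 94 changed by 1 on the log2 scale, and called 6 unchanged genes. No other genes were changed in the simulation, and it held no trend with GC content. Its rates need not hold for these data, in which 2760 genes were called higher and 2099 lower. Alternatives were edgeR 4.0.16 and DESeq2 1.42.0 on recovered reads, other filters, pseudocounts and scalings, the replicate block and each library left out.

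The chains, classes and gene lists were chosen with earlier results of these data known. Values per library are given for chains that passed, that had a mean of at least 500 or that belong to a compared pair. From each other list, up to 2 genes per direction with the smallest adjusted p are named. DCN, LUM, PDGFRA, ESR1, PGR, ERBB2, SERPINH1 and MMP14 were added as background. An item is not reported here; counts, medians and sums over the chains include it, and figures leave it out.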

Additional observations from a re-analysis of the deposited data

How the results depend on the processing

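The counts of 1 chain higher and 13 lower, with a median log2 fold change of -0.17, were recomputed under 23 alternatives. DESeq2 on recovered reads gave 0 higher and 13 lower, with 6 chains without an adjusted p, COL4A3 among them. A minimum mean of 50, which left 28 chains and took out COL4A3, gave 0 higher, 13 lower and a median of -0.23. Removal of the GC and length trend gave 0 higher, 6 lower and a median of -0.0497. Leaving out 1 library at a time gave 0 to 1 higher, 8 to 17 lower and a median of -0.23 to -0.12 as deposited, and 0 to 2 higher, 4 to 8 lower and a median of -0.11 to -0.058 with the trend removed. COL1A2, COL6A1 and COL6A2 stayed lower under all 23 alternatives, and COL6A3 under 20 of them.

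Same-numbered control and knockout libraries had correlations of deviations of 0.0658, 0.0063 and 0.1294, against -0.0994 to 0.0272 for libraries of unlike number. Control replicates 1 and 3 correlated best with the knockout replicate of the same number, and control replicate 2 with knockout replicate 1. The labels do not say that equal numbers pair the samples, so the main test used no pairing. Whether the samples are paired was not settled. With the number as a replicate block 1 chain was higher and 13 were lower, among 3241 genes higher and 3024 lower, against 2760 and 2099 without it. With the block, the limma adjusted p was 0.0056 for COL18A1 and 0.00064 for LAMA5, below the values without it. For COL1A1 (0.045) and COL17A1 (0.013) it was above them. The replicate block with the trend removed gave 1 chain higher, COL13A1 (0.18, adjusted p = 0.044), 6 lower and a median of -0.0497.

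Signs turned only in chains and ratios that had not passed. Trend removal, alone or with the block, gave log2 fold changes of 0.18 for COL13A1, 0.015 for COL27A1, 0.048 for COL4A1, 0.10 for COL8A2, 0.15 for LAMB2 and 0.066 for LAMB3, and log2 ratios of -0.15 for COL5A2 to COL5A1 and -0.15 for COL6A3 to COL6A1. Quantile normalization gave 0.049 for COL13A1, 0.016 for LAMB2 and -0.046 for COL9A2, which was -0.016 with edgeR and -0.0036 with DESeq2. With a library left out, as deposited or with the trend removed, the log2 fold change ran from -0.12 to 0.21 for COL12A1, -0.048 to 0.23 for COL13A1, -0.23 to 0.072 for COL27A1, -0.13 to 0.090 for COL4A1, -0.26 to 0.46 for COL9A2, -0.021 to 0.057 for LAMB1, -0.13 to 0.19 for LAMB2 and -0.26 to 0.12 for LAMB3. As deposited, the log2 ratio of COL5A2 to COL5A1 then ran from -0.17 to 0.31, COL6A3 to COL6A1 from -0.081 to 0.14 and LAMB3 to LAMA3 from -0.12 to 0.22. The cause was not tested. In the 11 chains with means under 100 normalized counts the depth limits the test: 1 was called, and all 11 intervals of the log2 fold change were wider than 1.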
